A study of Mus musculus with 2 samples.

Results

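Toll-like receptors (TLRs) are the pattern recognition receptors that myeloid cells use to sense microbial products and material from dying cells. The 10 genes described here were 8 receptors (Tlr1, Tlr2, Tlr3, Tlr4, Tlr7, Tlr8, Tlr9 and Tlr13), the co-receptor Cd14 and the adaptor Myd88. They were chosen by gene symbol, all 10 were present among the 32285 genes of both matrices, and their UMIs were summed over marker-gated cell populations. CD45+ cells were sorted from flank tumors of MC38, a colon carcinoma cell line of the mouse, in hosts labelled WT, a name the study also gives to the Ythdf2 fl/fl mice of its knockout experiments. The Control library came from tumors without irradiation and the IR library from tumors taken 4 days after a single local dose of 20 Gy. Cells of 4 tumors were pooled into each library. With 1 library in each group there was no replicate and no test, and the 95% intervals below cover counting error alone, not the spread between animals or libraries. Mice of both sexes, 8 to 10 weeks old, were used. The labels also carry the cell type CD45+CD11b+Ly6Chi, which the data go against, because T cell, NK cell and dendritic cell markers were abundant in both libraries.

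TLRs fall into 2 groups by where they meet their ligands. Tlr1 and Tlr2 recognize bacterial lipopeptides at the cell surface and Tlr4 recognizes lipopolysaccharide there, with Cd14 delivering the ligand to Tlr4 and also assisting Tlr2. Tlr3, Tlr7, Tlr8, Tlr9 and Tlr13 sit in endosomes and bind double-stranded RNA, single-stranded RNA, RNA fragments, CpG DNA and bacterial ribosomal RNA, respectively. With the exception of Tlr3, these receptors signal through Myd88, which leads to NF-kB and interferon regulatory factors. Classical monocytes and macrophages are known as the cells with the broadest set of these receptors.

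Barcodes with at least 1000 UMIs and at most 25% mitochondrial UMIs left 4679 cells in Control (median 7302 UMIs per cell) and 3411 in IR (median 8266). UMIs (unique molecular identifiers) count captured RNA molecules rather than fragments. Levels are given as CPM, the UMIs of a gene scaled to a total of 1000000 UMIs of the population, and need no division by transcript length. Cells were gated on UMIs of marker genes, none of which was one of the 10 genes. The monocyte gate held 642 Control and 884 IR cells with Ly6c2, Ccr2, Chil3, Plac8, Hp or Ms4a4c above C1q, and the macrophage gate 1762 and 350 cells with C1qa, C1qb and C1qc above the monocyte genes. The other gates of at least 50 cells in 1 library or both were nonclassical monocytes (61 and 118 cells), neutrophils (27 and 209), mature dendritic cells (114 and 141), T cells (406 and 268), NK cells (324 and 411), basophils or mast cells (34 and 60), and cells with collagen or keratin genes, named fibroblast or tumor cells (90 and 87). Cells with markers of more than 1 gate, or over their gate's limit of C1q or myeloid UMIs, were termed mixed (714 and 523). They and the cells that passed no gate (420 and 295) were kept apart. The libraries shared 6 barcodes. Cells with near-equal monocyte and C1q marker UMIs (a C1q share of 40% to 60%) numbered 127 of the 2404 Control and 87 of the 1234 IR cells of these gates, so that the border between monocyte and macrophage gate is a line drawn through a range.

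RefSeq start-site windows of build GRCm38.p6 (250 bases before to 50 after the start) were found for 7 of the 10 genes, in 8 windows. Tlr4, Tlr7 and Cd14 had no entry. Both strands were searched for the letters of 3 motifs that are well known at myeloid and inflammatory genes. These were GAAANNGAA, the core of interferon-response elements, GAGGAA, the PU box of myeloid genes, and the NF-kB consensus. Of all 32851 windows, 8.56% held the first, 28.3% the second and 4.51% the third. The 4 windows below belong to genes whose levels differed between the libraries and between cell types, with motif letters in capitals, 5′ to 3′ on the strand of the gene. They lie at chr3:83841559-83841858 (minus strand) for Tlr2, chr8:45410331-45410630 (minus) for Tlr3, chrX:106143025-106143324 (plus) for Tlr13 and chr9:119339969-119340268 (minus) for Myd88.
Tlr2: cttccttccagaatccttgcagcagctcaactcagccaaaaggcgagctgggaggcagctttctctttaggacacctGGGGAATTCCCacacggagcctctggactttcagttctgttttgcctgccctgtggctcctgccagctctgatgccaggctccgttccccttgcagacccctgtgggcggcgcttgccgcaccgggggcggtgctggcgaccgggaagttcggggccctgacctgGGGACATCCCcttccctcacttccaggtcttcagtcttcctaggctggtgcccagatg
Tlr3: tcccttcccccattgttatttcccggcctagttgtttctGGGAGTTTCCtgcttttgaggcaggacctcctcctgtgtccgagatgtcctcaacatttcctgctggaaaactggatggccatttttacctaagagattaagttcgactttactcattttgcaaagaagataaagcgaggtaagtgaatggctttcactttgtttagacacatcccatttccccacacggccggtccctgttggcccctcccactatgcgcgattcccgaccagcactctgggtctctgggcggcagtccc
Tlr13: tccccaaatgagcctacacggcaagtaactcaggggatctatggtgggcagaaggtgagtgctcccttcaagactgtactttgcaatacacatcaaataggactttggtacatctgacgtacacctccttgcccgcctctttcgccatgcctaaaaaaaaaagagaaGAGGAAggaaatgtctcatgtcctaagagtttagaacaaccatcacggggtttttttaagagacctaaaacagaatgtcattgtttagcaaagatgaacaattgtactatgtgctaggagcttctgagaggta
Myd88: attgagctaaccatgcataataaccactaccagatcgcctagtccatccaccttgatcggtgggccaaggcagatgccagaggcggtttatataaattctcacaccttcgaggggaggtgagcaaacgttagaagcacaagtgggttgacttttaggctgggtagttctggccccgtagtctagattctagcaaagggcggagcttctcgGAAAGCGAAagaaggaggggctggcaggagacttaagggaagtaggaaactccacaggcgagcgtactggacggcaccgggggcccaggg
The Tlr2 window held the NF-kB letters at overlapping places that begin 173 and 172 bases before the start and again 8 bases before it. The Tlr3 window held the NF-kB letters 211 bases before the start, and neither of these windows held the other motifs. In the Tlr13 window the capitals mark the PU box 83 bases before the start, and in the Myd88 window the interferon-response core 40 bases before it. Of the windows not printed, that of Tlr8 held the interferon-response core and the PU box, that of Tlr9 the PU box at 2 places, and 1 of the windows of Tlr1 the PU box. These matches describe letters only. The Tlr3 and Myd88 windows lie wholly inside the genes of the GENCODE vM21 annotation, downstream of their annotated 5′ ends. In the GENCODE vM21 annotation the Myd88 gene (chr9:119335934-119341411) overlaps Slc22a14 on its own strand, so its UMIs carry that uncertainty, and the other genes overlap none on their strand.

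Cd14 was by far the most abundant of the 10 transcripts and Tlr2 the second, while Tlr9 was barely detected. Over all kept cells, Cd14 stood at 599.9 CPM in Control (24917 UMIs) and 965 CPM in IR (36540 UMIs). Tlr2 stood at 178 and 226 CPM, and Myd88 at 44.1 and 59.3 CPM. Tlr13 (25.1 and 33.6 CPM), Tlr4 (21.0 and 24.4 CPM), Tlr7 (9.97 and 14.6 CPM), Tlr1 (9.54 and 6.61 CPM) and Tlr3 (6.41 and 7.37 CPM) were all far below Cd14. Tlr8 had 59 and 56 UMIs, and Tlr9 had 12 and 15 UMIs in the whole of each library, so that no difference in Tlr9 was detectable at this depth. These whole-library values mix changes within cells with the changed share of each gate, since the monocyte gate took 13.7% of the Control library and 25.9% of the IR library, and the macrophage gate 37.7% and 10.3%.

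The highest level was not in the same gate for all of the genes, as the plot of levels by gate shows. For Tlr1, Tlr8 and Tlr9 the intervals of all neighbouring gates overlapped in both libraries, so gates next to each other in rank could not be told apart. Gates further apart did differ for Tlr1. In Control its interval was 9.26 to 16.5 CPM in monocyte-gated cells and 1.7 to 7.2 CPM in T cells. In IR these intervals were 9.31 to 14.4 CPM and 1.4 to 6.6 CPM. Cd14 was highest in neutrophils, with 4315 CPM in the 27 Control cells (95% Poisson interval 3775 to 4910) and 4641 CPM in the 209 IR cells (4502 to 4782). Monocyte-gated cells followed with 1275 and 1726 CPM, nonclassical monocytes with 1013 and 1476 CPM and macrophage-gated cells with 686 and 989.7 CPM, and in IR the intervals of these 4 gates did not overlap. Neutrophils were 0.577% of Control cells and held 0.923% of all Cd14 UMIs, whereas in IR they were 6.13% of cells and held 11.6% of them. At an equal depth of 2000 UMIs per cell, 97.4% of 155 IR neutrophils had a Cd14 UMI (exact binomial interval 93.5% to 99.3%), against 5% of 400 IR NK cells (3.08% to 7.62%), a cell type that should lack it. Without that thinning the shares were 99.0% and 10.9%.

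Tlr4 and Tlr13 also reached their highest IR level in neutrophils. Tlr4 was at 105 CPM there (85.2 to 128), above 43.6 CPM in macrophage-gated cells (37.2 to 50.8) and 34.8 CPM in monocyte-gated cells. Tlr13 was at 122 CPM (99.99 to 146), against 61.0 CPM in nonclassical monocytes (47.9 to 76.6). In Control the 27 neutrophils had only 3 Tlr4 and 4 Tlr13 UMIs and could not be ranked. At 2000 UMIs per cell, 20.0% of the IR neutrophils had a Tlr4 UMI and 21.3% a Tlr13 UMI, compared with 0.25% of IR NK cells for each gene. The unthinned shares were 32.5%, 33.5%, 1.70% and 0.73%, in the same order.

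Among gates of at least 50 cells, Tlr7 was highest in the nonclassical monocytes, the patrolling subset marked here by Ace, Adgre4 and Treml4. It stood at 53.5 CPM in Control (32.2 to 83.5) and 49.5 CPM in IR (37.8 to 63.7), above the 17.2 and 26.1 CPM of monocyte-gated cells, the next among gates of at least 50 cells in both libraries. Among gates of at least 50 cells Myd88 was also highest there, with 110 and 99.0 CPM, although in IR its interval (82.1 to 118) overlapped that of monocyte-gated cells (83.4 to 97.3). Tlr2 was at 431 CPM in Control and 421 CPM in IR nonclassical monocytes. In IR this could not be told from the 438 CPM of monocyte-gated cells (423 to 454) and the 437 CPM of neutrophils (395 to 482).

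Tlr3, the sensor of double-stranded RNA, had a distribution unlike that of the other receptors. Its highest level among gates of at least 50 cells was in the fibroblast or tumor cells, at 9.46 CPM in Control (16 UMIs, 5.41 to 15.4) and 19.4 CPM in IR (56 UMIs, 14.6 to 25.1). Macrophage-gated cells followed with 8.68 and 9.26 CPM, a difference within counting error in Control but not in IR. The cDC1 gate, a dendritic cell subset known for Tlr3, held 16 Tlr3 UMIs in 20 Control cells (56.4 CPM) and 4 UMIs in 13 IR cells (25.8 CPM), numbers too small to rank. T cells and NK cells had 1 or 2 Tlr3 UMIs in each library, and mature dendritic cells had none in either library, where 3 UMIs would have corresponded to 3.26 and 2.07 CPM. Tlr1 did not separate the myeloid gates, with 13.4 CPM in Control macrophage-gated cells (11.7 to 15.3) and 12.5 CPM in monocyte-gated cells (9.26 to 16.5). Tlr8 was at most 3.44 CPM in the monocyte and macrophage gates. Plasmacytoid dendritic cells, known for Tlr7 and Tlr9, were 8 cells in Control and 10 in IR, with 3 and 4 Tlr7 UMIs (61.8 and 63.6 CPM, with wide intervals) and none of Tlr9.

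**Figure D1:**
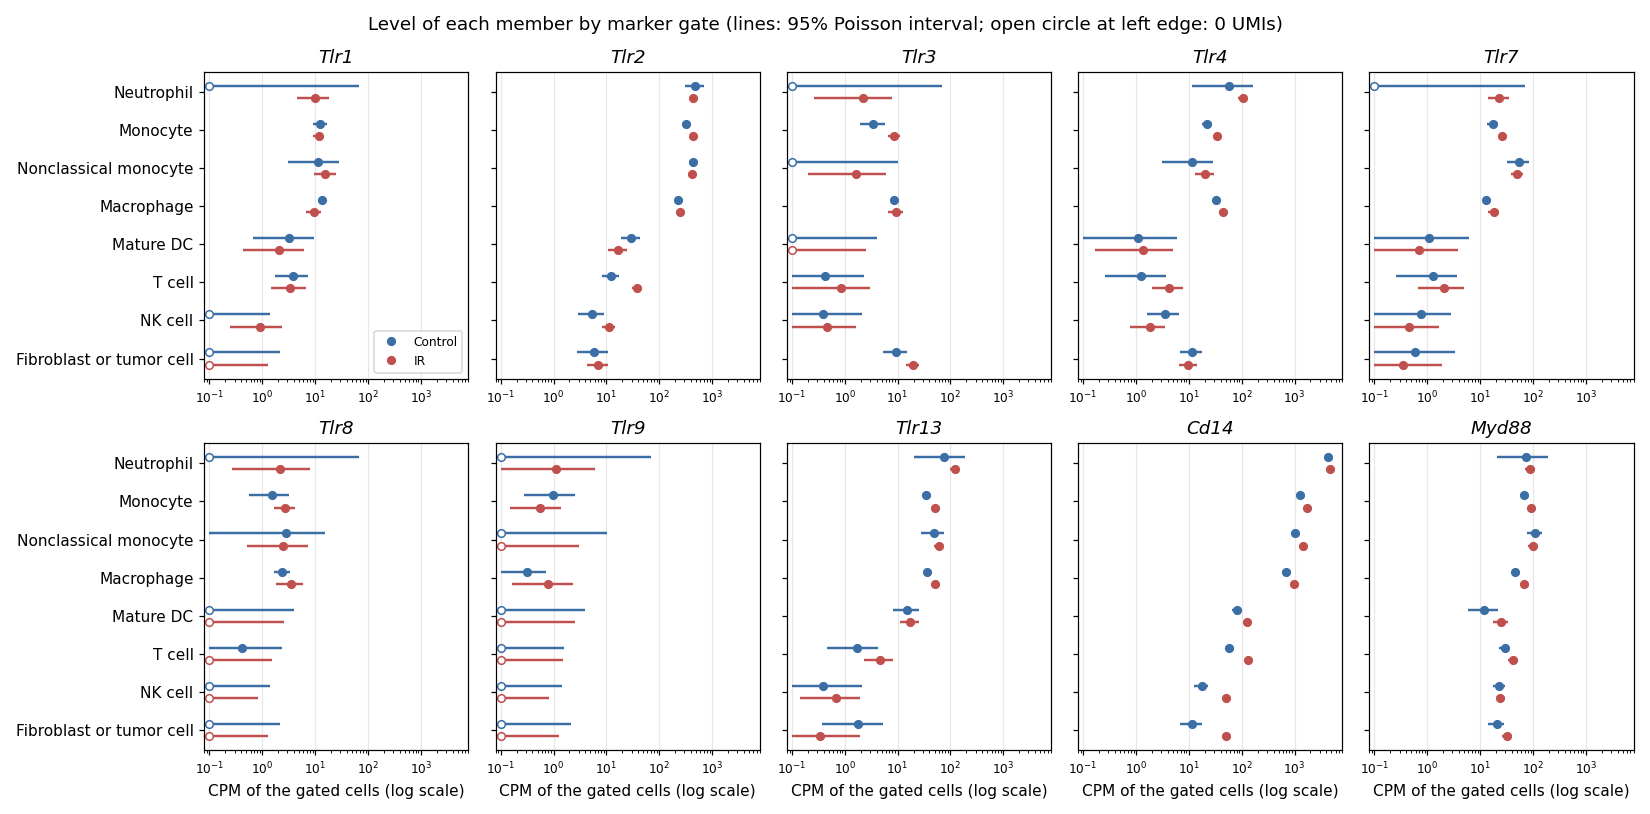
Level of each of the 10 genes in 8 marker gates, in CPM on a log scale, for the Control (blue) and IR (red) library. Points are summed UMIs of the gate, lines are 95% Poisson intervals, and an open circle at the left edge marks a gate with 0 UMIs. Cd14 reached 4641 CPM in IR neutrophils, and Tlr7 was highest in nonclassical monocytes among the gates shown in both libraries.

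Within a library, both gates carried all of these genes, at levels that differed for some. The ratio of macrophage over monocyte gate was taken for genes with at least 50 UMIs over both gates, and a gene was called when the ratio passed 1.5-fold and its exact 95% interval excluded 1. In each library 8 of the 10 genes were tested. In Control, Cd14 was called lower in macrophage-gated cells, with a log2 ratio of -0.89 (-0.94 to -0.85), and Tlr3 was called higher, at 1.31 (0.52 to 2.22). This was 1 of 8 in each direction, near the background of 7.79% of tested genes called lower and 13.3% called higher. Tlr2 (-0.55), Myd88 (-0.53) and Tlr4 (0.56) had intervals that excluded 0 without reaching 1.5-fold. In IR, Cd14 (-0.80) and Tlr2 (-0.81) were called lower and none of the 10 genes was called higher, against a background of 9.14% and 10.3%. Tlr13 was alike in both gates in both libraries, at 0.09 (-0.18 to 0.37) in Control and -0.01 (-0.26 to 0.25) in IR. Tlr7 had a ratio of -0.40 in Control (-0.80 to 0.01) and of -0.51 in IR (-0.93 to -0.11). The intervals of Cd14, Tlr2 and Myd88 lay on the side of the monocyte gate in both libraries, that of Tlr7 in IR, and that of Tlr4 on the side of the macrophage gate in both.

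The main comparison asked how these transcripts differed between irradiated and untreated tumors inside the gated cells. In monocyte-gated cells, 8 of the 10 genes had at least 50 UMIs over both libraries, and 4 of them, Tlr3, Tlr4, Tlr7 and Tlr13, were called higher in IR. The background was 5.07% of 8611 tested genes called higher and 6.2% called lower, and none of the 8 was called lower. For 7 of the 8, all but Tlr1, the interval of the ratio lay above 1, against 13.5% of all tested genes. The median log2 ratio of the 8 was 0.52, beside -0.08 over all tested genes. In macrophage-gated cells 9 of the 10 genes were tested and none passed 1.5-fold in either direction, where 5.28% of 9971 genes were called higher and 9.55% lower. The interval lay above 1 for 6 of the 9 (14.3% of all genes), and their median was 0.49 beside -0.09 for all tested genes.

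The surface receptors and Cd14 came first by abundance. In monocyte-gated cells Cd14 was at 1275 CPM in Control (5107 UMIs) and 1726 CPM in IR (12588 UMIs), a log2 ratio of 0.44 (0.39 to 0.48). In macrophage-gated cells it was at 686 CPM (10908 UMIs) and 989.7 CPM (3743 UMIs), a log2 ratio of 0.53 (0.47 to 0.58). The Cd14 intervals of the libraries did not overlap in either gate, and the IR level of macrophage-gated cells stayed under the Control level of monocyte-gated cells. Tlr2 was at 328 and 438 CPM in monocyte-gated cells, a log2 ratio of 0.42 (0.33 to 0.51). In macrophage-gated cells it was at 224 and 249 CPM, a log2 ratio of 0.15 (0.05 to 0.26). The Tlr2 intervals of the gates did not overlap, though the difference between gates was not tested.

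Tlr4 was called higher in monocyte-gated cells, at 22.0 CPM in Control (88 UMIs) and 34.8 CPM in IR (254 UMIs), a log2 ratio of 0.67 (0.31 to 1.03). In macrophage-gated cells it stood at 32.4 and 43.6 CPM, a log2 ratio of 0.43 (0.17 to 0.69), under the 1.5-fold line. The Tlr4 level of IR monocyte-gated cells was thus close to that of macrophage-gated cells in Control. Tlr1 was the only 1 of the 8 genes tested in monocyte-gated cells whose interval included no difference. It stood at 12.5 and 11.7 CPM in monocyte-gated cells (log2 ratio -0.10, -0.62 to 0.44) and at 13.4 and 9.52 CPM in macrophage-gated cells (-0.49, -1.05 to 0.02).

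Among the endosomal receptors, Tlr3 had the largest ratio of the 8 genes in monocyte-gated cells, from 3.50 CPM in Control (14 UMIs) to 8.64 CPM in IR (63 UMIs), a log2 ratio of 1.31 (0.45 to 2.26). In macrophage-gated cells Tlr3 was at 8.68 and 9.26 CPM (0.09, -0.49 to 0.64). The intervals of the gates overlapped, so a different Tlr3 response of the gates was not shown. Tlr13 was at 33.95 and 51.8 CPM in monocyte-gated cells (0.61, 0.32 to 0.90) and at 36.2 and 51.6 CPM in macrophage-gated cells (0.51, 0.27 to 0.75). Tlr7 was at 17.2 and 26.1 CPM in the former (0.60, 0.19 to 1.02) and at 13.0 and 18.2 CPM in the latter (0.49, 0.07 to 0.89). Tlr13 and Tlr7 lay close to the 1.5-fold line, and which side they fell on depended on the processing. For Tlr7 the monocyte gate was also split by C1q share. The Tlr7 ratio was 0.33 (-0.12 to 0.80) in the 455 Control and 720 IR cells with the fewest C1q UMIs (under 10% of marker UMIs). In the other 187 and 164 cells it was 1.40 (0.43 to 2.47, 12 and 38 UMIs). These intervals overlapped, so a different Tlr7 ratio in these parts of the gate was not shown. With mitochondrial and ribosomal protein genes left out of the total, Tlr7 came to 0.52 and Tlr13 to 0.53 in monocyte-gated cells, both under the 1.5-fold line. Tlr8 had 6 and 20 UMIs and Tlr9 4 and 4 UMIs in monocyte-gated cells and could not be compared. In macrophage-gated cells Tlr8 had 38 and 13 UMIs, with a log2 ratio of 0.52 (-0.51 to 1.47).

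Myd88, the shared adaptor, stood at 66.9 CPM (268 UMIs) and 90.1 CPM (657 UMIs) in monocyte-gated cells, a log2 ratio of 0.43 (0.22 to 0.64). In macrophage-gated cells it stood at 46.2 CPM (735 UMIs) and 67.4 CPM (255 UMIs), a log2 ratio of 0.54 (0.33 to 0.75). The IR level of Myd88 exceeded the Control level in both gates by more than counting error, without reaching 1.5-fold in either.

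**Figure D2:**
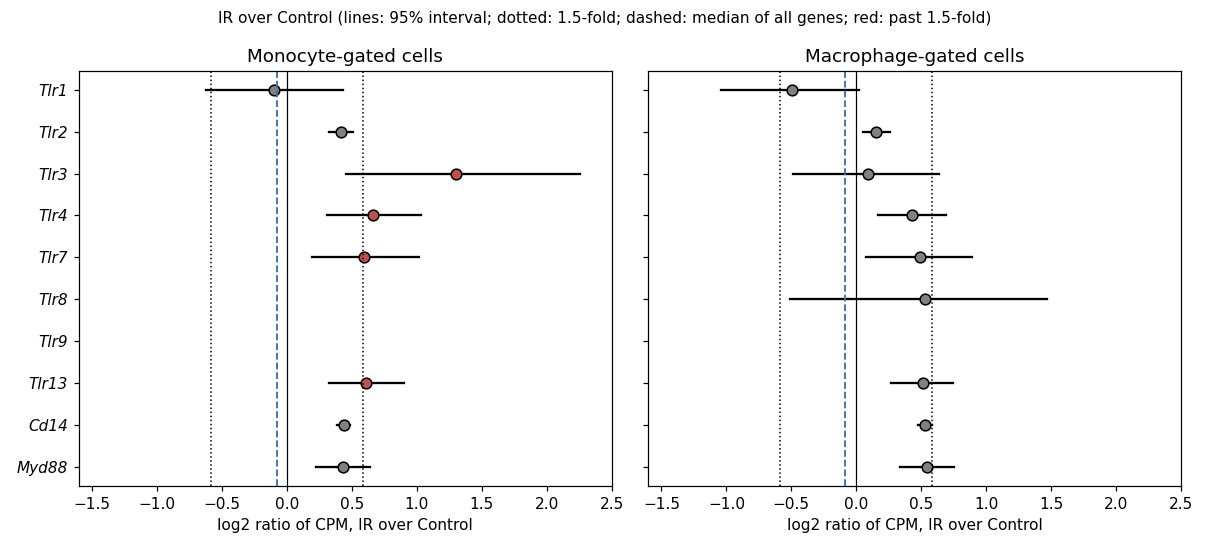
Log2 ratio of CPM, IR over Control, in monocyte-gated (left) and macrophage-gated (right) cells for the genes with at least 50 UMIs over both libraries. Points are ratios, red where past 1.5-fold (dotted) with an interval that excludes 1, lines are exact 95% intervals, and the dashed line is the median of all tested genes. Tlr3, Tlr4, Tlr7 and Tlr13 were past the line in monocyte-gated cells, and none was in macrophage-gated cells.

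The summed level of the 8 neutrophil markers (S100a8, S100a9, Retnlg, Csf3r, Cxcr2, G0s2, Mmp9 and Trem1, none at 0) was also higher in IR. It was 211 CPM in Control and 328 CPM in IR monocyte-gated cells, and 108 and 241 CPM in macrophage-gated cells. A link to the differences above was not tested. In cells without any UMI of S100a8, S100a9, Retnlg or Cxcr2 (583 and 725 monocyte-gated cells), a subset chosen after the data were seen, the Cd14 ratio was 0.34 (0.29 to 0.39), Tlr2 0.36, Tlr3 1.48, Tlr4 0.74 and Tlr13 0.64. Tlr7 was at 0.56 (0.13 to 1.02) and fell under the 1.5-fold line, which left 3 of the 4 calls. In the 1558 and 264 macrophage-gated cells of this kind, Cd14 was at 0.51 (0.45 to 0.57), and Tlr7 (0.67), Tlr13 (0.60) and Myd88 (0.68) were past 1.5-fold. Tlr2 (0.10, -0.03 to 0.22) and Tlr4 (0.26, -0.07 to 0.57) then had intervals that included no difference in macrophage-gated cells. The share of all genes past 1.5-fold was not counted in these subsets, so the calls in them have no background beside them.

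Depth per cell also differed between the libraries, with a median of 5524 UMIs in Control and 7513 UMIs in IR monocyte-gated cells. Thinned to 2000 UMIs, 70.7% of 574 Control (66.8% to 74.4%) and 79.0% of 828 IR (76.0% to 81.7%) monocyte-gated cells had a Cd14 UMI, and the intervals did not overlap. For Tlr2 the shares were 40.2% (36.2% to 44.4%) and 47.3% (43.9% to 50.8%), which overlapped slightly. Before thinning they were 82.6% and 90.4% for Cd14 and 65.4% and 81.6% for Tlr2. The other receptors had a UMI in at most a minority of thinned cells, for example 6.10% and 10.1% for Tlr13 and 0.174% and 1.57% for Tlr3, the former with 1 Control cell. Thinning left out 68 Control and 56 IR cells of this gate.

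The share of C1q UMIs among monocyte and macrophage marker UMIs orders these cells from monocyte to macrophage, and cells were split at 10%, 50% and 90% of that share. The 4 bins held 455, 187, 704 and 1058 Control cells and 720, 164, 215 and 135 IR cells. Cd14 was lower at each step along this axis in both libraries, and IR exceeded Control in every bin. The Control levels were 1400, 1017, 785 and 619 CPM and the IR levels 1767, 1581, 1057 and 889.9 CPM, with log2 ratios of 0.34, 0.64, 0.43 and 0.52 whose intervals all lay above 0. Tlr4 ran the other way, from 21.5 to 33.3 CPM in Control and from 34.5 to 46.6 CPM in IR. Its log2 ratios were 0.68, 0.66, 0.42 and 0.48, with only the second interval (-0.003 to 1.35) reaching 0.

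Tlr2, like Cd14, was lower at each step along the axis in both libraries. It was higher in IR in the monocyte bins, at 0.35 (0.24 to 0.46) and 0.51 (0.32 to 0.71), and in the macrophage bins its ratios were 0.07 (-0.06 to 0.21) and 0.15 (-0.02 to 0.31). With Ly6c2 and Ms4a4c left out of the marker genes, the last of these was 0.31 (0.16 to 0.45). Tlr3 had a similar course, at 1.41 and 1.32 in the first bins (8 and 45 UMIs, then 6 and 18) and 0.15 and 0.05 in the last. Of these Tlr3 ratios only the first had an interval (0.3 to 2.7) that excluded 0. Tlr7 was at 0.33, 1.40, 0.80 (0.19 to 1.40) and 0.38 (-0.24 to 0.96). Tlr13 was at 0.54, 0.84, 0.70 and 0.34 and Myd88 at 0.41, 0.36, 0.58 and 0.36, positive in all bins. The last Tlr13 interval (-0.05 to 0.70) and the second Myd88 interval (-0.06 to 0.79) included 0. Tlr1 was lower in IR in the last bin alone, at 14.4 and 7.22 CPM (136 and 11 UMIs, log2 ratio -0.99, -2.03 to -0.11).

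**Figure D3:**
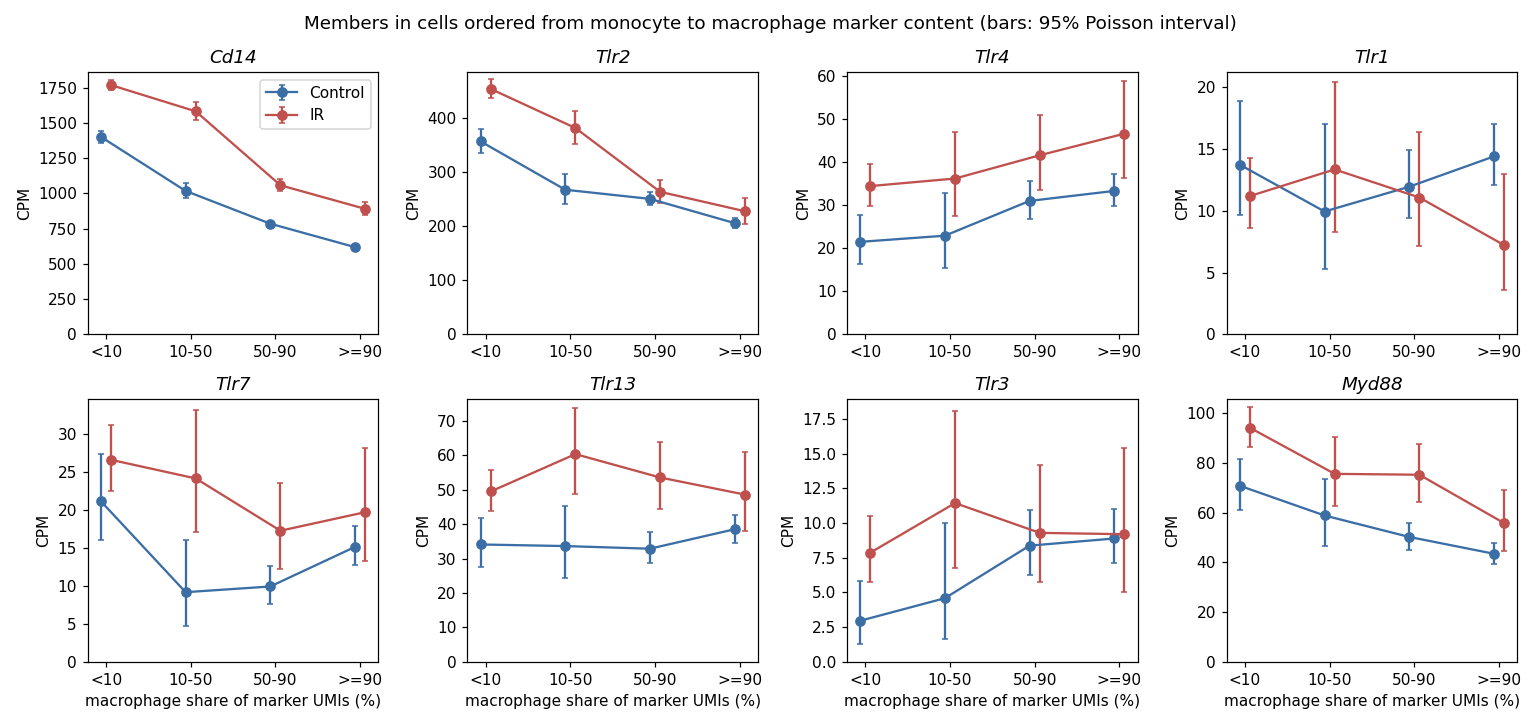
CPM of 8 genes in monocyte- and macrophage-gated cells, split by the macrophage share of marker UMIs, in Control (blue) and IR (red). Bars are 95% Poisson intervals and each vertical axis starts at 0. Cd14 declined from 1400 to 619 CPM in Control and from 1767 to 889.9 CPM in IR, and Tlr4 increased along the same order.

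In nonclassical monocytes Cd14 differed by about as much as in the monocyte and macrophage gates, and in neutrophils no difference was detectable in CPM. In the former Cd14 was at 1013 and 1476 CPM, a log2 ratio of 0.54 (0.38 to 0.71). Tlr2 (-0.03, -0.30 to 0.24), Tlr7 (-0.11, -0.88 to 0.72) and Myd88 (-0.15, -0.68 to 0.41) had intervals that included no difference. In neutrophils the Cd14 ratio was 0.10 (-0.09 to 0.30) and the Tlr2 ratio -0.10 (-0.69 to 0.54), with 27 Control cells. The neutrophil ratios depend on the scaling of the totals. With the alternative TMM scaling, whose factors were 1.13 in Control and 0.88 in IR neutrophils, they are higher, and the Cd14 interval lies above 0. Of the mature dendritic cells, Cd14 was called higher in IR, at 82.5 and 125 CPM (76 and 182 UMIs, log2 ratio 0.60, 0.21 to 1.01), where 7.85% of tested genes were. Myd88 had 11 and 36 UMIs there, under the limit of 50.

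The cells with collagen or keratin genes had little of the leukocyte marker Ptprc (13.6 and 5.87 CPM, against 558 and 514 CPM in monocyte-gated cells). Cd14, Tlr3 and Myd88 were called higher in IR in them. Cd14 was at 11.2 CPM in Control (19 UMIs) and 51.1 CPM in IR (148 UMIs), a log2 ratio of 2.19 (1.49 to 2.96). Tlr3 was at 9.46 and 19.4 CPM (1.03, 0.21 to 1.93), and Myd88 was at 20.7 CPM (35 UMIs) and 32.5 CPM (94 UMIs), a log2 ratio of 0.65 (0.08 to 1.25). The background was 4.68% of tested genes called higher. The myeloid genes Lyz2, Csf1r and Cd68 summed to 65.6 and 75.0 CPM in these cells, the 3 C1q genes to 46.1 and 2.76 CPM and the 8 neutrophil markers to 13.6 and 16.9 CPM (5 and 4 of them at 0). The gate holds the C1q sum down, since it left out cells with at least 10 C1q UMIs per 10000 UMIs. Cells of this gate had a median of 16787 UMIs in Control and 32808 UMIs in IR. The gate pools fibroblasts with tumor cells, and its makeup in the 2 libraries was not tested.

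T cells and NK cells also showed higher Cd14 and Tlr2 in IR. In the smaller number of these cells without a UMI of the myeloid genes named below, the intervals were wide and included no difference. In T cells Cd14 was at 58.2 and 133 CPM (138 and 317 UMIs, log2 ratio 1.19, 0.90 to 1.49) and Tlr2 at 12.2 and 38.1 CPM (1.64, 1.02 to 2.30). In NK cells Cd14 was at 17.4 and 50.4 CPM (1.54, 1.07 to 2.03) and Tlr2 at 5.40 and 11.1 CPM (1.04, 0.16 to 2.01). These 4 ratios passed the call, where 5.28% of tested genes in T cells and 4.25% in NK cells were called higher. The neutrophil markers in T cells summed to 13.5 CPM in Control (3 of 8 at 0) and 86.7 CPM in IR (none at 0), and those in NK cells to 6.94 CPM (2 at 0) and 15.1 CPM (1 at 0). Lyz2, Csf1r and Cd68 summed to 179 and 183 CPM in T cells and to 103 and 73.4 CPM in NK cells, and the C1q genes to 99.1 and 32.3 CPM and to 56.7 and 13.3 CPM. The gates hold these sums down in both libraries. T and NK cells with at least 10 UMIs of either set per 10000 UMIs were placed with the mixed cells. In the 137 Control and 140 IR T cells without a UMI of Lyz2, Csf1r, Cd68, C1q, S100a8 or S100a9, a subset chosen after the data were seen, Cd14 was at 21.0 and 27.9 CPM (0.41, -0.57 to 1.44) and Tlr2 at 8.40 and 6.70 CPM. In the 93 and 207 NK cells of this kind Cd14 was at 11.6 and 9.33 CPM (-0.32, -1.66 to 1.19) and Tlr2 at 1.66 and 1.65 CPM. Myd88 stood in these cells at 26.6 and 40.2 CPM in T cells and at 26.6 and 21.4 CPM in NK cells. The T cells of this subset still held 15 and 25 Cd14 UMIs. Their Cd14 interval also included the ratio of all T cells (1.19), whereas that of the NK cells did not include the ratio of all NK cells (1.54). The source of the Cd14 and Tlr2 UMIs in T and NK cells was not tested.

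**Figure D4:**
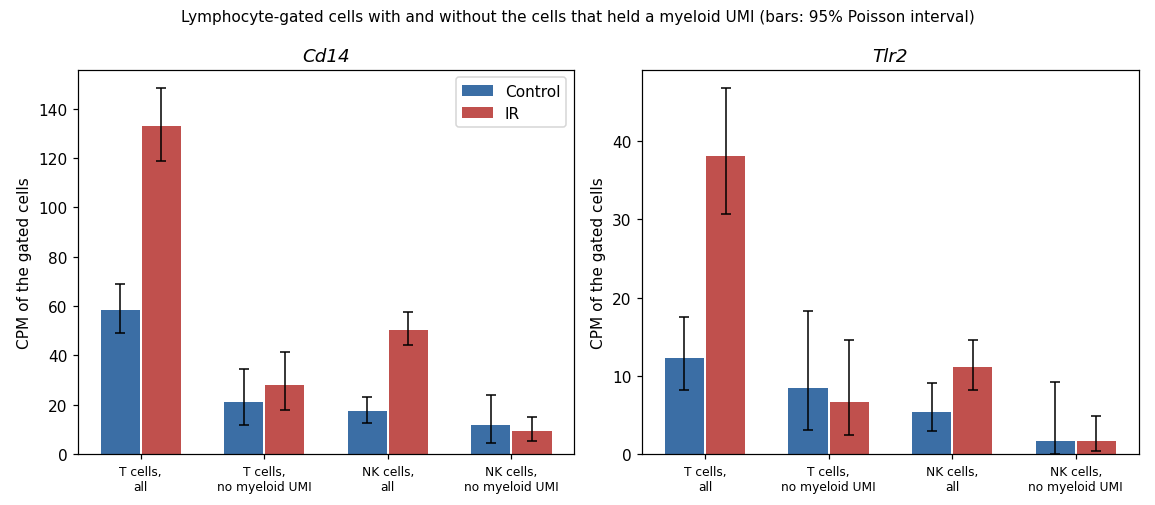
Cd14 (left) and Tlr2 (right) in T cell- and NK cell-gated cells of the Control (blue) and IR (red) library, in CPM, for all cells of the gate and for those with no myeloid UMI. Bars are summed UMIs and error bars 95% Poisson intervals. Cd14 in IR T cells was at 133 CPM in all cells and 27.9 CPM in cells with no myeloid UMI.

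Droplets with 10 to 100 UMIs, taken as empty, show what free RNA could add. Cd14 was at 441 CPM in Control and 614 CPM in IR droplets, Tlr2 at 126 and 129 CPM and Myd88 at 42.6 and 49.8 CPM. The UMIs of other lineages' markers put the free share at 3.35% of UMIs in Control and 1.51% in IR monocyte-gated cells, an estimate that the gates hold down, since they left out cells with many such UMIs. On this estimate free RNA made up 1.16% and 0.537% of the Cd14 UMIs of the monocyte gate, and 17.6% and 10.1% of those of T cells.

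Of the cells set apart, the mixed cells had log2 ratios of 0.85 for Cd14 (0.81 to 0.90), 0.80 for Tlr13, 0.91 for Tlr7, 0.66 for Tlr4 and 0.62 for Tlr2. The cells without a gate had 8 and 36 Tlr3 UMIs, at 2.73 and 13.6 CPM, and a Cd14 ratio of 0.38 (0.30 to 0.47). The direction in the mixed cells was that of the gated monocytes for each of these genes. Tlr1 was lower in the IR mixed cells, with 96 and 66 UMIs (log2 ratio -0.58, -1.06 to -0.12).

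The genes that carry and regulate TLR signals were listed by role, 57 with a matching symbol. In monocyte-gated cells 50 of them were tested, 6 were called higher in IR and none lower, where 5.07% and 6.2% of all tested genes were, and their median log2 ratio was 0.05 beside -0.08 for all. In macrophage-gated cells 53 were tested, 6 were called higher and 1 lower, where 5.28% and 9.55% of all tested genes were, with a median of -0.06 beside -0.09 for all. The calls were spread over roles, and most of the signalling core was not among them.

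Of the transcription factors, Irf7, which drives type I interferon genes downstream of endosomal receptors, had the largest ratio in both gates. It went from 164 to 635 CPM in monocyte-gated cells (1.95, 1.84 to 2.08) and from 46.5 to 375 CPM in macrophage-gated cells (3.01, 2.88 to 3.14). Irf3, Irf5, Irf8, Rela and Nfkb1 were not called in either gate, and the values of Nfkb1 were 0.07 and -0.32. Of the 13 kinases and ligases tested in monocyte-gated cells, Ikbke, a kinase of the interferon branch, was called, at 14.98 and 34.7 CPM (1.21, 0.80 to 1.64), and of the 14 in macrophage-gated cells none was. Irak1 (-0.36 and -0.22), Irak4 (-0.29 and -0.13), Traf6 (-0.18 and -0.11) and Map3k7 (-0.30 and -0.54), which act next after Myd88, had ratios under 0 in both gates without a call. The intervals of Irak4 and Traf6 included no difference in either gate, as did that of Map3k7 in monocyte-gated cells (-0.69 to 0.08). Those of Irak1 in both gates and of Map3k7 in macrophage-gated cells lay under 0. Irak2, a kinase of the same step, was at 0.46 (0.24 to 0.69) and 0.57 (0.32 to 0.82), also without a call.

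Of the adaptors, Pik3ap1, which links TLRs to PI3-kinase, was called in both gates (0.84 and 0.73), while Ticam1, the adaptor of Tlr3, was at 0.01 and -0.15 and Tirap at 0.27 and -0.18. Of the inhibitors, Nfkbia, which encodes the NF-kB inhibitor IkB-alpha, was called in monocyte-gated cells at 847 and 1682 CPM (0.99, 0.93 to 1.05) and stood at 0.45 in macrophage-gated cells. Socs1, a feedback inhibitor of cytokine signals, was called in macrophage-gated cells at 60.4 and 117 CPM (0.95, 0.78 to 1.11) and stood at 0.49 in monocyte-gated cells. Tnfaip3 was at 0.34 and -0.20.

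Of the other receptors and accessory proteins, Slc15a3, a lysosomal peptide transporter, and Ctsl, a protease that processes endosomal TLRs, were called in both gates. Slc15a3 was at 0.59 and 0.84, and Ctsl at 0.61 (0.53 to 0.70) and 0.96 (0.91 to 1.01). Cd36, a scavenger receptor that assists Tlr2 with Tlr6, was called in macrophage-gated cells at 59.2 and 136 CPM (1.197, 1.04 to 1.35). Tlr12, the only listed gene called lower, had 85 UMIs in Control and 2 in IR macrophage-gated cells (-3.34, -6.41 to -1.44). Unc93b1, the chaperone of the endosomal receptors, was at 336 and 352 CPM in monocyte-gated and 393 and 394 CPM in macrophage-gated cells, and Ly96, the partner of Tlr4, was at 29.7 and 27.3 CPM and at 29.8 and 35.7 CPM.

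**Figure D5:**
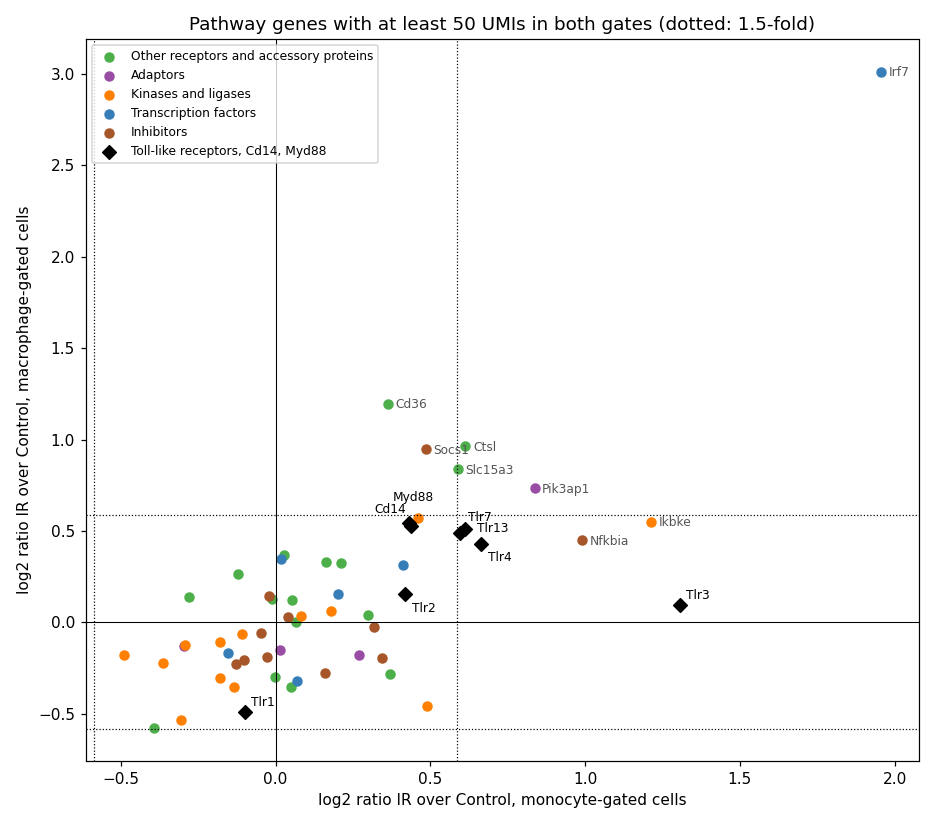
Log2 ratio, IR over Control, of TLR pathway genes with at least 50 UMIs in monocyte-gated (horizontal axis) and macrophage-gated cells (vertical axis), coloured by role, with the Toll-like receptors, Cd14 and Myd88 as black diamonds. Dotted lines mark 1.5-fold and the drawn genes called in either gate are named. Tlr12, called lower in macrophage-gated cells, is not drawn because it had 4 and 3 UMIs in monocyte-gated cells. Irf7 lay at 1.95 and 3.01, while most kinases and ligases lay around 0.

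Levels of 8 of the genes (Tlr8 and Tlr9 were left out for low UMIs) across the 16 populations of at least 50 cells (gates of both libraries, which share library and depth) were compared by Pearson correlation of log2(CPM + 1), as a description. Tlr2 and Tlr7 were most alike (r = 0.963), followed by Cd14 and Tlr2 (0.959). Tlr3 was least like the rest, with r from 0.009 to 0.217 except for Tlr4 (0.67). Outside the list, the nearest genes were F10, Sirpb1c and Slc11a1 for Tlr2 (0.988, 0.983 and 0.981), Ifi207, Thbs1 and Fcgr4 for Cd14 (0.981, 0.979 and 0.973), and Gpr35 for Tlr13 (0.979). Tlr7 was nearest to Clec4a3 (0.974), Tlr1 to Gm2a (0.973), Myd88 to Gm49041 (0.949), Tlr4 to Plin2 (0.94) and Tlr3 to Plxna1 (0.936).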

How the data were processed

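Single-cell RNA sequencing was done by the authors with the Chromium Next GEM 3′ kit (v3.1). The deposited matrices hold UMI counts per gene and barcode, not normalized, made by the authors with Cell Ranger (version 6.0.1 and build mm10 in the submitters' processing notes, version 4 in the file header). The study removed doublets with DoubletFinder, and the matrices used here are unfiltered, with 1067746 Control and 990007 IR barcodes.

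Barcodes with at least 1000 UMIs and at most 25% mitochondrial UMIs were kept (41533178 Control and 37848469 IR UMIs). Gates used marker UMIs per 10000 UMIs: neutrophil markers at least 50, and monocyte plus macrophage markers at least 10 with Lyz2, Csf1r and Cd68 at least 10. T, NK and B cells with Lyz2, Csf1r and Cd68 at least 10 were counted as mixed. So were cells with C1q genes at least 10 in all gates but the monocyte, macrophage and cDC2 gates. Thresholds, the check on Lyz2, Csf1r and Cd68, and the removal of some dendritic cell markers were chosen after marker values were seen. The 10 genes and all lists were chosen with earlier results of these data known. Doublets were not removed in the main values: the automatic Scrublet threshold marked 0 and 1 cells and did not work, so removal of the top 6% by score was an alternative.

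UMIs were summed per gate and library. Levels are CPM with exact Poisson 95% intervals, ratios carry exact conditional intervals, and shares have Clopper-Pearson intervals. A gene was called past 1.5-fold with an interval that excluded 1 and at least 50 UMIs over both libraries. With 1 library per group no test was made. Shares were thinned to 2000 UMIs per cell. Pathway genes were named where called (at most 8 per gate and direction) and the 3 most like genes per member by correlation, with others named for their role after values were seen. The code was tested on simulated data. Python 3.11.15, numpy 2.4.6, scipy 1.17.1, pandas 2.3.3, scanpy 1.11.5, R 4.3.3 and edgeR 4.0.16 (TMM factors, an alternative) were used.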

Additional observations from a re-analysis of the deposited data

Results flagged for a closer look

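Empty droplets were outside the comparisons of cells, and Tlr13 and Cd14 differed there too. Tlr13 had 52 Control and 59 IR UMIs (log2 ratio 0.663, 0.10 to 1.23), and Cd14 had 1905 and 1901 UMIs (0.478, 0.39 to 0.57), both higher per UMI in the IR droplets than in the Control ones. Tlr1 was lower there (-1.31, -2.33 to -0.39), with 45 and 13 UMIs.

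A pair of pathway genes had ratios of opposite sign in the main gates, each with an interval that excluded no difference. Lgmn, a lysosomal protease, was at 0.368 (0.28 to 0.45) in monocyte-gated and -0.284 (-0.34 to -0.23) in macrophage-gated cells. Tnfaip3, an NF-kB inhibitor, was at 0.344 (0.21 to 0.48) and -0.196 (-0.34 to -0.06). The difference between gates was not tested, and the libraries are the same in both.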

How the results depend on the processing

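No paired analysis was possible because each group was a single library. Over the processing alternatives, 179 of 187 log2 ratios of single genes moved by less than their counting interval, 8 moved by more and none reversed. In monocyte-gated cells the count of genes past 1.5-fold was 4, and it was 2 (Tlr3 and Tlr4) with mitochondrial and ribosomal protein genes left out of the total and 1 (Tlr3) at 2-fold. In cells with no neutrophil marker UMI it was 3, without Tlr7. In macrophage-gated cells it was 0, and it was 1 (Cd14) with a monocyte gate without Ly6c2 and Ms4a4c and 3 (Tlr7, Tlr13 and Myd88) in cells with no neutrophil marker UMI, a subset added after the data were seen. In the dendritic, T and NK cell gates it was 5, and 1 (Cd14 in mature dendritic cells) when T and NK cells with no myeloid UMI, also added later, were used. The share of all genes past the line was not counted under these alternatives, and the cause of the changed counts was not tested. Tlr7 in monocyte-gated cells was between 0.41 and 0.69 on the log2 scale, Tlr13 between 0.49 and 0.71, Tlr4 between 0.49 and 0.99 and Tlr3 between 0.47 and 1.53. The low end of each range came with 10 CPM added to the level of each library. There none of these 4 genes reached the 1.5-fold line, and the count of calls was not made under that alternative. Depth limits Tlr8 and Tlr9 in every gate and all receptors in Control neutrophils.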
